A study of Solanum tuberosum with 6 samples.

Results

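A set of 6 potato (Solanum tuberosum) genes that act between sucrose and starch was followed in seed tubers (tubers stored as planting stock). They were picked by gene ID as 2 genes of sucrose cleavage, the sucrose synthase SUS4 and the vacuolar invertase, and 4 genes of ADP-glucose pyrophosphorylase (AGPase), a small subunit and 3 large subunits, called A, B and C here only to tell them apart. Of these 6 gene IDs, 5 were listed in the expression table, which held 16250 rows for 16091 gene IDs. The names are those by which the genes were picked. Neither the table nor the RefSeq gene list used here pairs these IDs with names, so the identities were not checked against sequence.

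The series covered seed tubers of the cultivar Pacific, with 3 RNA libraries for expression and 3 bisulfite-treated DNA libraries for methylation, which were not analysed here. Beyond the cultivar, no genotype, treatment, age or storage time was named. The RNA libraries formed a single group, so there was no contrast between conditions. Expression was deposited as 1 FPKM value per row (fragments scaled to the length of the gene model and to the sequencing depth), in a column that names no library. No value per library, SD or n could therefore be given, and no difference could be tested; every level below is the authors' deposited FPKM, and every ratio or rank is a description of that 1 column. Read numbers were not part of the table, so the depth is unknown. The tissue label could not be checked against tuber marker genes, since the gene IDs carry no names.

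Sucrose reaches a growing tuber through the phloem and is cut there by enzymes of separate kinds. Sucrose synthase splits it with UDP into fructose and UDP-glucose, which feeds starch and cell wall synthesis. Invertase hydrolyses it to glucose and fructose, and the vacuolar form is best known in potato for the sugar that builds up in cold-stored tubers. AGPase then makes ADP-glucose, the glucosyl donor of starch synthesis, from glucose-1-phosphate and ATP inside the plastid. It is assembled from small subunits, which carry the main catalytic activity in the potato tuber enzyme, and large subunits, which mainly tune its regulation.

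The listed genes fell into a high and a low set. The AGPase small subunit was the highest, and 1 large subunit and SUS4 followed at nearly equal levels. Another large subunit and the vacuolar invertase were below the median of the listed rows, which was 12.2 FPKM. The table ends at 0.5 FPKM, so this median and every rank and percentile below hold among listed rows only. A gene below this median need not be low among all potato genes. The highest and the lowest of the 5 listed genes lay 622-fold apart. At 100 FPKM or more there were 3 of the 5 listed genes, against 12.3% of all rows, and at 10 FPKM or more there were the same 3, against 54.5% of all rows. None of them reached 1000 FPKM, a level held by 1.29% of rows. Each of the 5 genes had 1 row, so that no rows had to be summed.

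**Figure D1:**
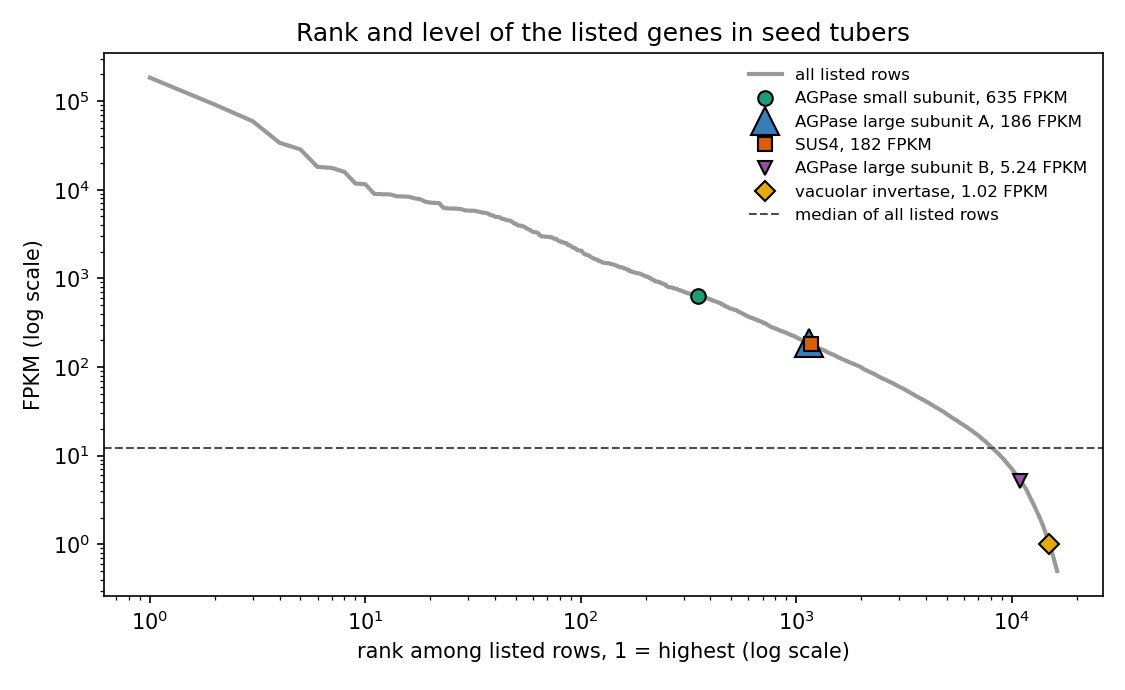
FPKM (log scale) against rank from the highest row (log scale) for all 16250 listed rows (grey line), with each of the 5 listed genes as a symbol and the median of all rows as a dashed line. The AGPase small subunit, large subunit A and SUS4 sit above the median of 12.2 FPKM, and large subunit B and the vacuolar invertase sit below it.

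Sucrose synthase SUS4, an isoform known from sink tissues such as tubers, had 182 FPKM (PGSC0003DMG400002895.v4.03). It ranked 1169 among 16250 rows, with 92.8% of rows lower, and stood 14.9-fold above the median row. A value 1.5-fold higher would have ranked 800 and a value 1.5-fold lower 1650. The 1.5-fold step was chosen for scale and is not a measured error.

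The vacuolar invertase, which cleaves sucrose stored in the vacuole, had 1.02 FPKM (PGSC0003DMG400013856.v4.03). It ranked 14941, with 8.04% of rows lower, and lay 2.04-fold above the lowest row of the table at 0.500045 FPKM. The median row was 11.9-fold higher than the invertase. Its FPKM was printed identically in 2 other rows, and among the 1615 rows within 1.5-fold of it, 24.5% shared their value with another row. The other 4 listed genes shared their value with no row. Repeated values were rarer near SUS4, at 2.24% of the rows within 1.5-fold.

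SUS4 exceeded the vacuolar invertase 178-fold, a log2 ratio of 7.48. SUS4 thus made up 99.4% of the 183 FPKM summed over both, and the invertase made up 0.558%. This sum covers the 2 picked genes only. Other sucrose synthases and the cell wall and neutral invertases could not be found in the table without names, so it is not the tubers' whole capacity for sucrose cleavage.

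The AGPase small subunit had 635 FPKM (PGSC0003DMG400031084.v4.03), the highest level among the 5 listed genes. It ranked 349, with 97.9% of rows lower, and stood 52.1-fold above the median row. The 348 rows above it held 63.7% of the summed FPKM of the table. The highest row of all, PGSC0003DMG402017090.v4.03 at 183788 FPKM, was 289-fold higher than the small subunit.

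The levels of the large subunit genes A and B, the listed ones, lay far apart. PGSC0003DMG400000735.v4.03 (large subunit A) had 186 FPKM and ranked 1142, with 93.0% of rows lower. PGSC0003DMG400015952.v4.03 (large subunit B) had 5.24 FPKM and ranked 10971, with 32.5% of rows lower, and the median row was 2.32-fold higher. Large subunit 735 was therefore 35.6-fold above large subunit B and held 97.3% of their sum, against 2.73% for large subunit B. Both encode the subunit type that mainly tunes the enzyme's response to metabolites.

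The remaining large subunit gene, PGSC0003DMG400009026.v4.03 (large subunit C), was not listed. The table ended at 0.5 FPKM, so its level may lie anywhere below that, or the gene may be missing for another reason, since the set of genes that was quantified is unknown. Of the 100 ID numbers within 50 of its own, 57 were listed, among them the number before and the number after it. For the 5 listed genes the same count was 25 to 43. Only IDs with the same leading digits as the picked genes were counted. What the numbering follows is not known here, so these counts do not bear on why large subunit C was not listed.

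Within AGPase, the small subunit exceeded the sum of the listed large subunits 3.31-fold and large subunit A alone 3.41-fold. Of the 827 FPKM summed over the listed subunits, the small subunit held 76.8%, large subunit A held 22.6% and large subunit B held 0.634%. FPKM is scaled to gene length, so these are shares of transcripts and not of reads, and they do not give the amounts of protein. They cover the picked genes only, as any other AGPase genes could not be found without names.

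**Figure D2:**
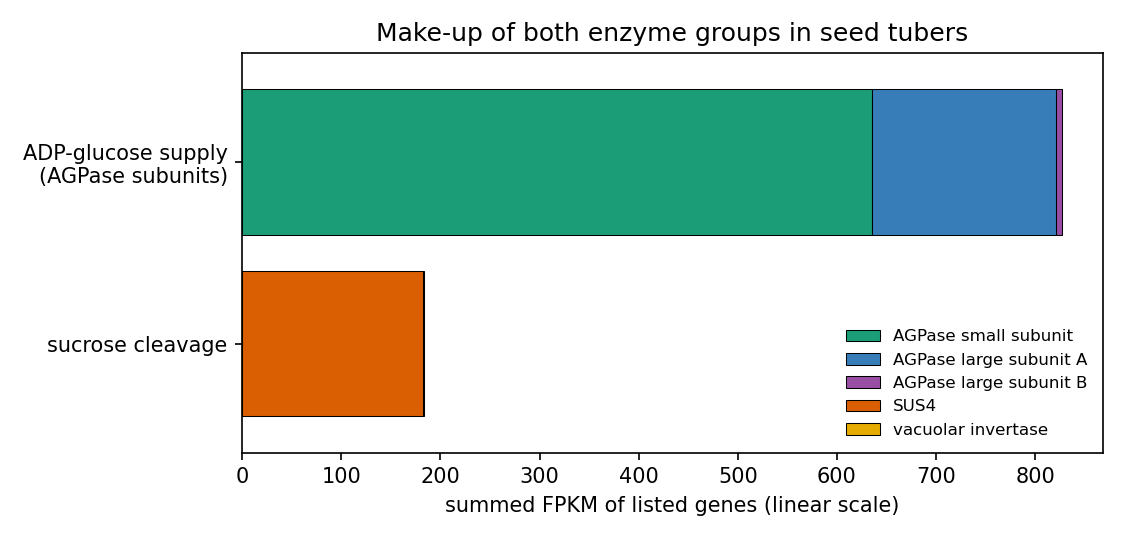
FPKM (linear scale) summed over the listed AGPase subunit genes (upper bar) and over the picked sucrose cleavage genes (lower bar), with each gene as a coloured segment. The small subunit and SUS4 make up 76.8% and 99.4% of their bars, and the vacuolar invertase at 1.02 FPKM is too thin to see.

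Set against the picked sucrose cleavage genes, the summed listed AGPase subunits were 4.51-fold above SUS4 and the vacuolar invertase together. Other sucrose synthases and invertases are left out, so this ratio does not compare AGPase with sucrose cleavage as a whole. The small subunit was 3.49-fold above SUS4. Large subunit 735 was 1.02-fold above SUS4, a gap of 4.32 FPKM with 26 rows between them. With 1 value per gene and no replicate error, the order of large subunit A and SUS4 cannot be told. The 148 IDs that the table lists in exactly 2 rows differed between those rows by a median 2.22-fold. That spread is not a replicate error and does not bear on the order of large subunit A and SUS4.

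**Figure D3:**
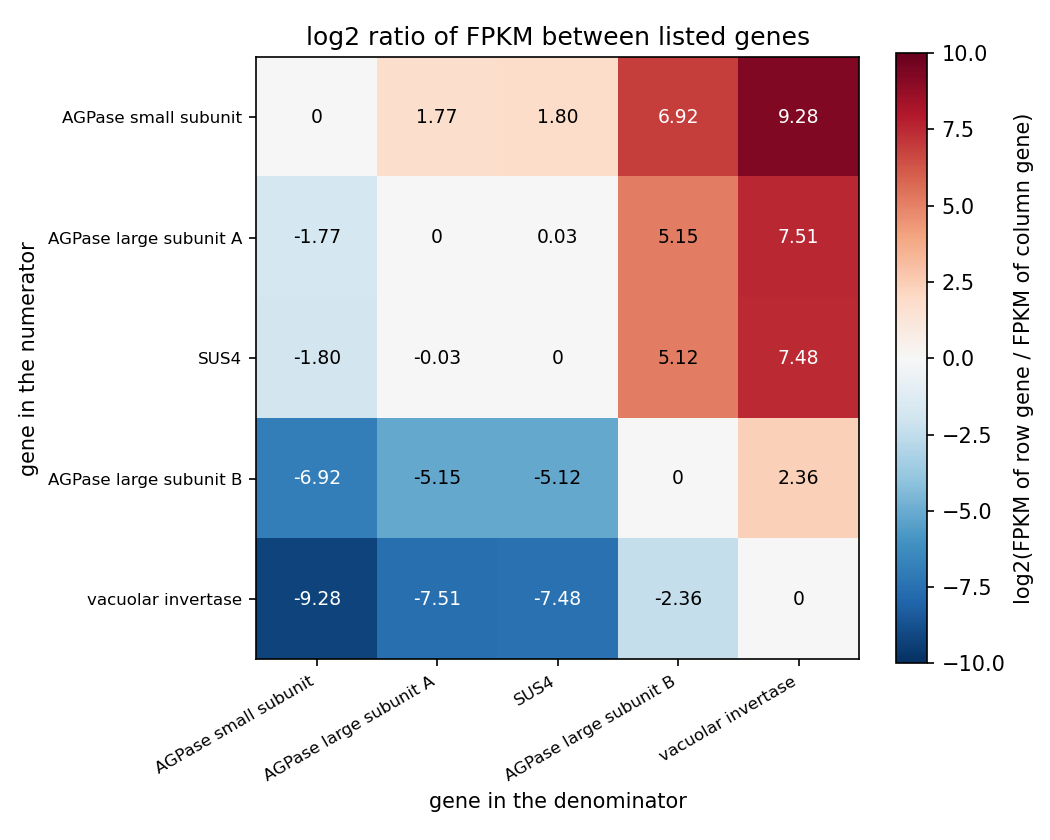
log2 ratio of FPKM between each pair of the 5 listed genes, row gene over column gene, with genes ordered from the highest to the lowest level. The small subunit stands 9.28 above the vacuolar invertase, and large subunit A and SUS4 differ by 0.03.

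Over the 10 pairs of listed genes, the log2 ratio of the higher to the lower ran from 0.03, for large subunit A over SUS4, to 9.28, for the small subunit over the vacuolar invertase. The 5 listed genes summed to 1009.8 FPKM, or 0.0577% of the summed FPKM of the table. The small subunit alone held 62.9% of that sum, large subunit A held 18.5% and SUS4 held 18.0%. In RNA extracted from tubers, fewer cells of a type and less RNA per cell cannot be told apart, which holds for each low level given here.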

How the data were processed

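Per the labels' protocols, the 3 RNA libraries were made from poly(A) RNA and read from both ends. TopHat2 2.1.0, which aligns reads across splice junctions, appears in the submitters' processing notes. Not given in the sources used here are the genome build, the program that computed expression, the treatment of reads that map to several genes and the way libraries were combined. How far near-identical genes share reads is therefore unknown. The authors deposited FPKM values in 1 column without library names, and these were used with no pseudocount. The table ends at 0.5 FPKM.

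Rows were matched by exact gene ID and rows of 1 ID were to be summed. Ranks count from the highest row, and a percentile is the percent of listed rows with a lower FPKM. The genes were chosen by annotation, with earlier results of these data known; only these genes and, for scale, the highest row are named. No test, interval or detection limit could be computed, because there is 1 value per gene and the depth is unknown. None of the gene IDs (0 of 16091) matched the 32873 genes of the RefSeq list (assembly SolTub_3.0), so lists of other pathway genes and tissue markers were not run, and no sequences are shown. The code for ranks, percentiles and the share of the sum above a row was checked on a simulated table with known answers, which tests the arithmetic alone. Software versions were pandas 2.3.3 and NumPy 2.4.6 under Python 3.11.15, with Matplotlib 3.10.9 for plots.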

Additional observations from a re-analysis of the deposited data

How the results depend on the processing

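With neither replicates nor depth, a value was counted as moved when it changed more than 1.5-fold. Of 79 recomputed values, 66 stayed within that and 13 moved. Many of them could not move, since each gene had 1 row and removing lower rows cannot change a rank from the top. None reversed, but adding a constant to both genes cannot reverse a log2 ratio. The count of unmoved values is therefore no measure of robustness. A pseudocount of 5 FPKM on the log2 scale lowered the log2 ratio over large subunit B to 5.97 for the small subunit, 4.22 for large subunit A and 4.19 for SUS4. The log2 ratio over the vacuolar invertase was 8.30, 6.54, 6.50 and 1.63 with 1 FPKM added and 6.73, 4.99, 4.96 and 0.77 with 5 FPKM added, for the small subunit, large subunit A, SUS4 and large subunit B in that order. These shifts follow from adding a constant to low values. With rows at 1 FPKM or more only, the invertase had 0.367% of rows lower, and with rows at 5 FPKM or more only, large subunit B had 1.29% lower and the invertase had no value, as the filters remove low rows. Counting the unlisted large subunit at the lowest listed FPKM, an alternative chosen after seeing the data, left the log2 ratio of the small subunit to the summed large subunits at 1.72, against 1.73. Leaving out each RNA replicate was not run, as the table has 1 value column. No paired analysis was possible because the column carries no replicate numbers. What depth limits could not be computed.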
